A study of Sus scrofa with 48 samples.

Results

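The genes followed here encode subunits of the respiratory chain and of the ATP synthase, with a few factors that assemble or couple them. They were all genes whose single symbol in the array annotation starts with NDUF, UQCR, COX and a digit, or ATP5. This name rule reads no expression value, though the family was taken up with earlier results of these data known. It gave 60 of the 6765 genes with a single symbol, and the probe set with the highest mean log2 signal stood for each gene. Of the 60 genes, 55 encode subunits, with 32 in complex I, 2 in complex III, 8 in complex IV and 13 in complex V, and 5 encode factors that are no subunits.

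Complexes I, III and IV pass electrons from NADH to oxygen in the inner mitochondrial membrane and pump protons, and complex V, the ATP synthase, uses the returning protons to make ATP. Complex I has a peripheral arm that takes the electrons from NADH and a membrane arm that pumps. Complex V has an F1 head that makes ATP, a membrane part with a turning ring of subunit c, and a stator that holds the head still. The liver uses these complexes to pay for gluconeogenesis and the urea cycle, and white fat cells use them at a lower rate, also while they build lipid. The subunits encoded by mitochondrial DNA are not among the 60 genes.

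RNA came from the liver and the fat of 24 Yorkshire gilts aged 6 months, from a line bred for low residual feed intake. By genotype they were homozygous either for the wildtype D298 form of MC4R, the melanocortin 4 receptor, a brain receptor that restrains feeding, or for its N298 form. Within each genotype 6 gilts ate ad libitum (fed) and 6 were fasted for 3 days, which makes 8 groups with 6 arrays each, a liver and a fat array for every gilt. The labels do not name the fat depot, and all gilts share the line. The p values below measure the spread between these gilts.

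The arrays carried the markers of their labelled tissues. The mean log2 signal of 8 hepatocyte markers ran from 14.8 to 15.4 on liver arrays and from 5.9 to 10.8 on fat arrays. That of 6 adipocyte markers ran from 12.1 to 12.7 on fat arrays and from 4.7 to 6.5 on liver arrays. The fat arrays differed widely in 5 skeletal muscle markers, whose mean log2 signal ran from 3.5 to 13.4 in fed and from 4.0 to 14.1 in fasted gilts, against 2.8 to 4.7 in liver. No muscle marker was called for fasting in fat. The 6 fat arrays with the highest muscle markers, 2 from fed and 4 from fasted gilts, had means from 12.9 upwards, and 4 fat arrays (3 fed, 1 fasted) had a hepatocyte mean above 10. Fasting counts in fat are therefore given with and without these arrays, and other results in fat use all fat arrays unless stated. Of 6 endothelial markers 4 were higher in fasted fat (mean log2 of the list 9.8 to 10.6 fed and 10.6 to 11.2 fasted), and so were 1 of 6 adipocyte, 1 of 8 hepatocyte and 1 of 2 erythroid markers. No macrophage or lymphocyte marker was called. The part of these markers in the results below was not tested. In whole tissue, fewer cells of a type and less RNA per cell cannot be told apart.

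The first question was how 3 days without feed changed these genes in fat. Fasted fat had lower signals of nearly the whole set: 55 of the 60 genes were called lower, 1 was called higher and 4 were not called. The call was an adjusted p under 0.05 in limma with Benjamini-Hochberg adjustment over the 23999 probe sets tested. Among all probe sets 25.2% were called, 10.1% as lower and 15.1% as higher, so that 10.1% is the background for the 55 falls. The median log2 difference, fasted minus fed, was -0.72 over the 60 genes and 0.075 over all probe sets. By complex the falls took in all 32 genes of complex I (median -0.79), both genes of complex III, 7 of 8 in complex IV (median -0.77) and 11 of 13 in complex V (median -0.59).

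Per array, the mean log2 signal of the complex I genes was 10.94 in the lowest fed fat array, 11.36 at the median and 11.91 in the highest, and 10.43, 10.65 and 10.77 in fasted fat. The 12 fasted arrays thus lay below all 12 fed arrays. The complex V mean ran from 12.21 to 12.91 in fed fat and from 11.64 to 12.0 in fasted fat, again without overlap. The complex IV mean overlapped, at 11.73, 12.19 and 12.96 in fed and 11.07, 11.58 and 12.02 in fasted fat, and so did that of complex III, at 11.91, 12.43 and 12.95 against 11.42, 11.75 and 12.12. The complex IV mean includes COX8H, whose log2 signal ran from 4.08 to 9.35 in fed and from 4.08 to 9.82 in fasted fat. The lowest fed array for complex IV had a muscle marker mean of 3.5, and the highest fasted array had 14.0. The part of COX8H in this overlap was not tested. In liver the means of fed and fasted arrays overlapped for every complex, as the plot of complex means shows.

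**Figure D1:**
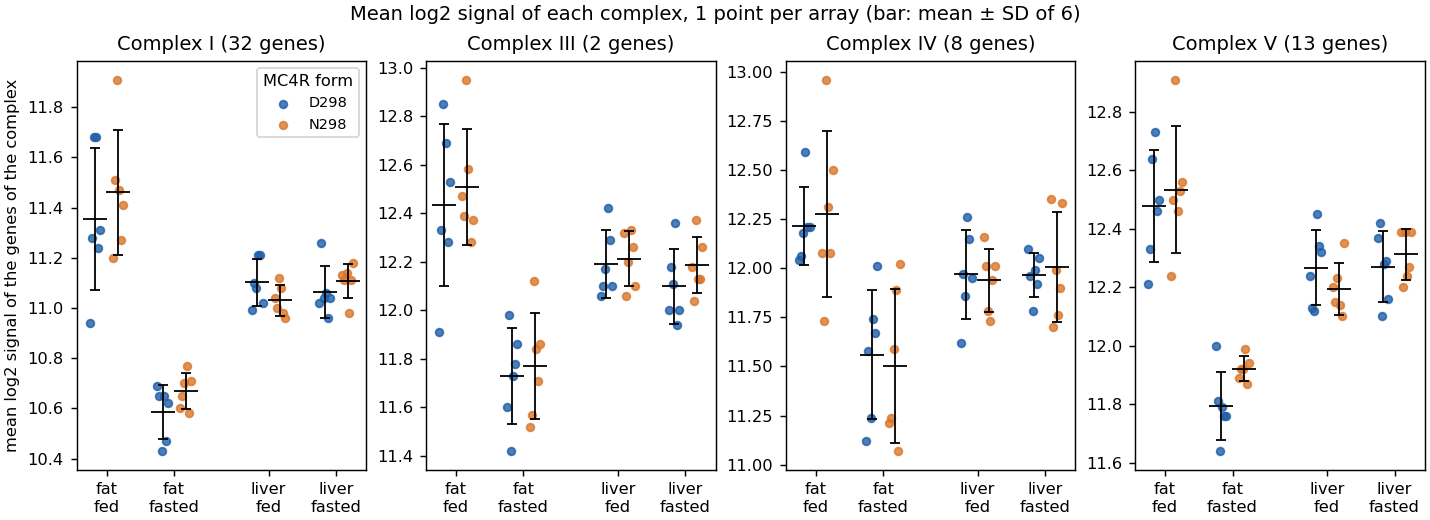
Mean log2 signal of the genes of complexes I, III, IV and V (vertical axis, a scale of its own for each panel) on each of the 48 arrays, by tissue and feeding state (horizontal axis) and MC4R form (colour), with bars for the mean ± SD of 6 arrays. Fasted fat lay below fed fat without overlap for complex I (highest fasted 10.77, lowest fed 10.94) and complex V (12.0 and 12.21), and the liver groups overlapped.

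In the peripheral arm of complex I all 12 genes fell, with a median of -0.79. NDUFS7, a core iron-sulfur subunit close to the quinone site, had the largest fall of the whole set. Its signal in fed fat was 1470 in the lowest array, 2130 at the median and 4160 in the highest, and in fasted fat 656, 765 and 1000. No fasted array reached the lowest fed one, and NDUFS7 fell by 1.51 ± 0.117 in log2 signal (SE; 12 fasted and 12 fed gilts), which leaves 0.352 of the fed level (limma with Benjamini-Hochberg adjustment, adjusted p = 1.4e-08).

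NDUFA9, an accessory subunit of the same arm, fell by 1.35 ± 0.129, from 1850, 2910 and 5380 (lowest, median and highest fed) to 697, 1250 and 1560 fasted. NDUFS3, a core subunit, went from 1890, 2930 and 4440 in fed to 1160, 1310 and 1590 in fasted fat, a fall of 1.18 ± 0.0822 without overlap. NDUFA12, another accessory subunit, had the smallest fall in complex I, at 0.29 ± 0.0766, with overlapping values of 3260, 3920 and 4980 fed and 2440, 3410 and 4070 fasted. Without replicate number 4 (-0.25) and among the arrays low in muscle markers (-0.40) it was not called, at a fall of like or larger size in fewer arrays. The span within this arm was thus wide, from NDUFA12 at 0.818 of the fed level to NDUFS7 at 0.352 of it.

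In the membrane arm all 19 genes fell, with a median of -0.73 and a range from -1.18 to -0.33. NDUFB8 had signals of 3980, 5690 and 7120 in fed and 2600, 3030 and 3770 in fasted fat, and it fell by 0.83 ± 0.0671 (adjusted p = 2.24e-08 in limma). Its fasted and fed arrays did not overlap. NDUFAB1, the mitochondrial acyl carrier protein, which sits in both arms and also serves lipoic acid synthesis, fell by 1.22 ± 0.0986 from 6410, 9610 and 12800 to 3260, 4310 and 5370. These ranges did not overlap either.

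Only 2 subunits of complex III, which hands electrons from ubiquinol to cytochrome c, were measured. UQCR10, a small subunit, fell by 0.93 ± 0.0848 (adjusted p = 1.12e-07 in limma), from 2880, 4440 and 6280 in fed to 1880, 2440 and 3150 in fasted fat. UQCRB, the ubiquinone-binding protein, fell by 0.51 ± 0.0908, from 5160, 6990 and 9950 to 3830, 4940 and 6260. In both genes the highest fasted array passed the lowest fed one.

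Complex IV, cytochrome c oxidase, passes the electrons on to oxygen, and its nuclear subunits have forms for different tissues. COX5B, a zinc-binding subunit, fell by 0.92 ± 0.0773 (adjusted p = 3.83e-08 in limma), from 6900, 9630 and 14200 in fed to 4310, 5410 and 6370 in fasted fat, without overlap. COX7A1, the heart and muscle form of subunit VIIa, had signals of 726, 3030 and 4010 in fed and 499, 637 and 1680 in fasted fat. It had the largest fall of the complex and the largest SE among its called genes, at 1.40 ± 0.249 (adjusted p = 0.000242 in limma), and its fed and fasted arrays overlapped. Liver arrays also carried signal of COX7A1, at 1960, 2830 and 3800 in fed and 1650, 3510 and 5620 in fasted gilts. COX7A2, the form of liver and most other tissues, fell by 1.01 ± 0.0903 without overlap, from 3060, 4940 and 8230 to 2180, 2520 and 2990.

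COX6A1, the form of subunit VIa found outside heart and muscle, fell by 0.75 ± 0.0825, from 8200, 12300 and 15600 in fed to 5760, 7320 and 8360 in fasted fat. NDUFA4, named for complex I and now placed in complex IV, fell by 0.79 ± 0.0797 without overlap, from 7690, 10300 and 14900 to 4990, 5990 and 6790. COX6C had the smallest called change, a fall of 0.19 ± 0.0509 (adjusted p = 0.00834 in limma). After quantile normalization it was -0.04 and not called. In fewer arrays the difference stayed between -0.16 and -0.24 but was not called, namely without replicate number 3 (-0.16) or 4 (-0.17), without the arrays highest in muscle markers (-0.18) or those with liver markers (-0.16), and among the arrays low in muscle markers (-0.24).

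COX8H, the heart form of subunit VIII, was not called, with a log2 difference of -0.08 ± 0.704 (adjusted p = 0.958 in limma). Its signal ran from 16.9 to 652 in fed and from 16.9 to 907 in fasted fat, so that both states spanned nearly the same range. After group and replicate number were taken out, its log2 signal followed the muscle marker mean over the 24 fat arrays with r = 0.93, against a median r of 0.03 over the 60 genes. The points share arrays and scaling. The 6 arrays highest in muscle markers had COX8H log2 signals between 8.54 and 9.82, and the 11 lowest had signals between 4.08 and 7.41.

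The F1 head of complex V makes the ATP, and its 4 measured genes all fell. ATP5B, the catalytic beta subunit, had signals of 8610, 11700 and 15600 in fed and 4930, 5460 and 6440 in fasted fat. All fasted arrays lay below all fed ones, and ATP5B fell by 1.09 ± 0.0757, which leaves 0.468 of the fed level (limma with Benjamini-Hochberg adjustment, adjusted p = 3.1e-09). ATP5A1, the alpha subunit, fell by 0.79, ATP5D of the central stalk by 0.63 and ATP5E of the same stalk by 0.32. In the stator all 4 genes fell, with a median of -0.51 and a range from -0.59 (ATP5F1, subunit b) to -0.38 (ATP5J, coupling factor 6).

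Subunit c, which forms the turning ring, is encoded by 3 genes whose mature proteins are the same and whose import sequences differ. ATP5G1 had signals of 2330, 3580 and 8010 in fed and 1460, 1650 and 2070 in fasted fat and fell by 1.19 ± 0.121 without overlap (adjusted p = 3.96e-07 in limma). ATP5G3 fell by 0.84 ± 0.0824, from 8200, 11700 and 18500 to 5820, 6730 and 8230, where a single fasted array, at 8230, lay just above the lowest fed one. ATP5G2 was not called, at -0.11 ± 0.0496 (adjusted p = 0.11), with overlapping signals of 5030, 5340 and 6080 in fed and 4280, 5160 and 5730 in fasted fat. After median-centring it was called, at -0.20 (adjusted p = 0.0152).

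The 3 genes thus changed by unequal amounts, which was tested on their log2 ratio within each array, in a family of 8 such tests over both tissues chosen with earlier results known. The ratio of ATP5G1 to ATP5G2 was lower by 1.08 in fasted than in fed fat, as fed arrays averaged -0.47 ± 0.42 (SD, n = 12) and fasted arrays -1.55 ± 0.24. All 12 fasted arrays lay below all fed ones (2-sided permutation test with 100000 resamples, p = 2e-05, the smallest it can give, and 8e-05 after Benjamini-Hochberg adjustment). The ratio of ATP5G3 to ATP5G2 differed by -0.73 (permutation p = 2e-05, adjusted 8e-05), with 11 fasted arrays below all fed ones, and that of ATP5G1 to ATP5G3 by -0.35 (permutation p = 0.00022, adjusted 0.000587), with 9. The ratio of COX7A1 to COX7A2 differed by -0.39, with a permutation p of 0.188 (adjusted 0.301), less than the SD of the arrays (0.75 fed, 0.66 fasted). Among the 11 arrays low in muscle markers, an alternative added after seeing the data, it differed by -0.84 (exact permutation p = 0.0303, not adjusted). In liver none of the 4 ratios passed, with a smallest permutation p of 0.0639 for COX7A1 to COX7A2 (difference 0.34).

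**Figure D2:**
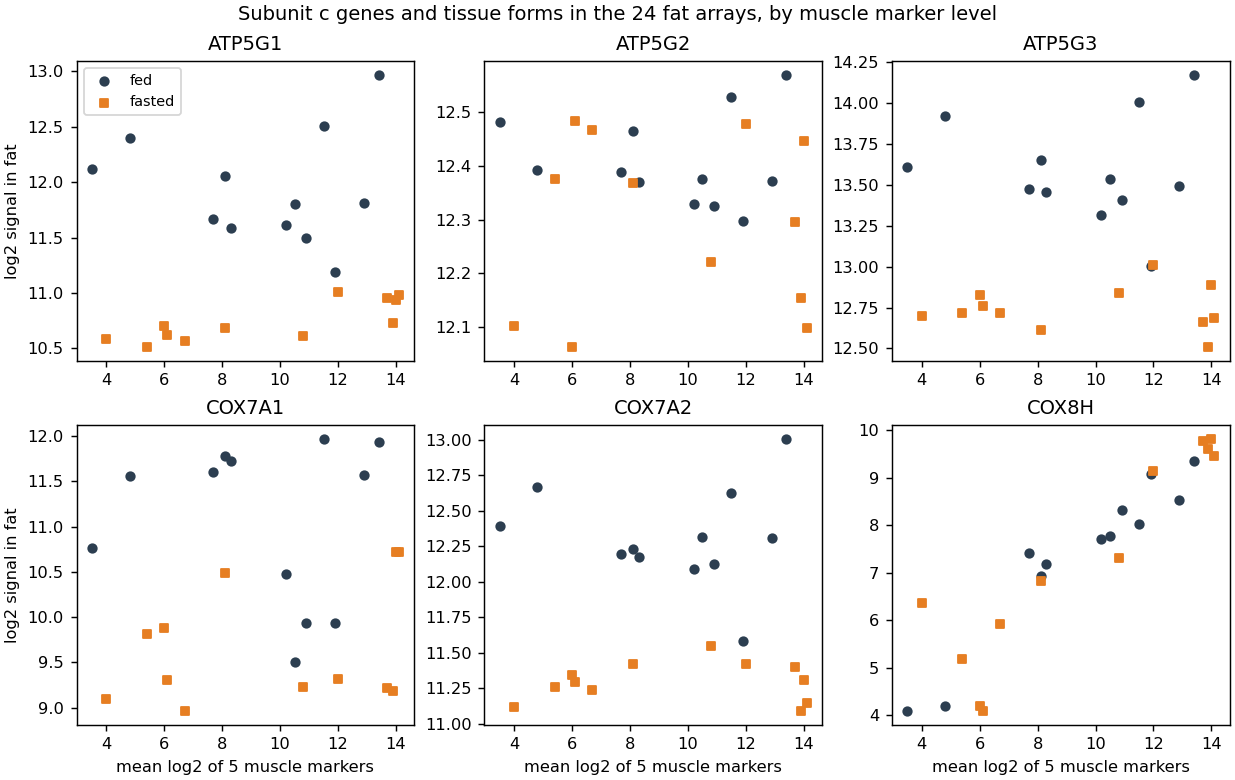
Log2 signal (vertical axis) of the 3 subunit c genes and of COX7A1, COX7A2 and COX8H on each of the 24 fat arrays, against the mean log2 signal of 5 muscle markers (horizontal axis), with fed gilts as circles and fasted gilts as squares. Fasted arrays lay below all fed ones for ATP5G1 at every muscle level, overlapped them for ATP5G2, and followed the muscle markers together with the fed arrays for COX8H. For COX8H r was 0.93 after group and replicate number were taken out, which the plotted values are not.

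ATP5L, subunit g of the membrane part, fell by 0.92 ± 0.0911 without overlap, and ATP5I, subunit e, was not called at -0.52 ± 0.33. ATP5I had signals from 232 to 1710 in fed and 212 to 1110 in fasted fat, so its arrays spread more than those of its neighbours in the complex.

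The 5 genes that encode no subunit moved less, with a median of -0.25. COX10, which makes the heme A precursor of complex IV, fell by 0.45 ± 0.121, the complex I assembly factor NDUFAF1 by 0.45 ± 0.107 and NDUFAF3 by 0.25 ± 0.0709. COX10 was not called without replicate number 2 (-0.29) or 3 (-0.40). NDUFAF3 was not called without replicate number 3 (-0.19) or 4 (-0.23), without the arrays highest in muscle markers (-0.18) or those with liver markers (-0.21), or among the arrays low in muscle markers (-0.35). ATP5S, coupling factor B, was not called (-0.02 ± 0.0754). NDUFAF2, a complex I assembly factor, was the single gene called higher, with 270, 370 and 414 in fed and 314, 487 and 597 in fasted fat and overlapping arrays. Its rise was 0.39 ± 0.083 (adjusted p = 0.0013 in limma), and the mean over its probe sets gave -0.09 (adjusted p = 0.856), since its second, dim probe set gave -0.57. Among the arrays low in muscle markers it gave 0.29 and was not called.

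In all, 24 of the 60 genes had no overlap between the 12 fasted and the 12 fed fat arrays, each with fasted below fed, where 1.11% of all probe sets did. They were 17 genes of complex I, 3 of complex IV (COX5B, COX7A2 and NDUFA4) and 4 of complex V (ATP5B, ATP5D, ATP5G1 and ATP5L). The fall of the set was also present in each subset of arrays: without the 6 arrays highest in muscle markers 49 genes were lower and 1 higher (median -0.68, background 6.2% lower and 8.45% higher), and without the 4 arrays with liver markers 51 and 1 (median -0.66, background 7.91% and 10.9%). Among the 11 arrays lowest in muscle markers 49 were lower and 0 higher, with a median of -0.78 (background 6.05% and 7.23%). In these subsets the call of NDUFV3 was lost each time, and those of ATP5E and NDUFB4 in both muscle subsets. That of NDUFC2 was lost without the arrays highest in muscle markers and without those with liver markers. NDUFV3 was also not called without replicate number 2, 3, 5 or 6. Centred on each array's median, 56 were lower and 1 higher, where the split over all probe sets turned to 12.6% lower and 9.59% higher. After quantile normalization the calls of COX6C and NDUFB4 were lost, with a median of -0.64. With the muscle marker mean as a covariate, 0 calls were lost and 0 gained, and the median was -0.72.

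**Figure D3:**
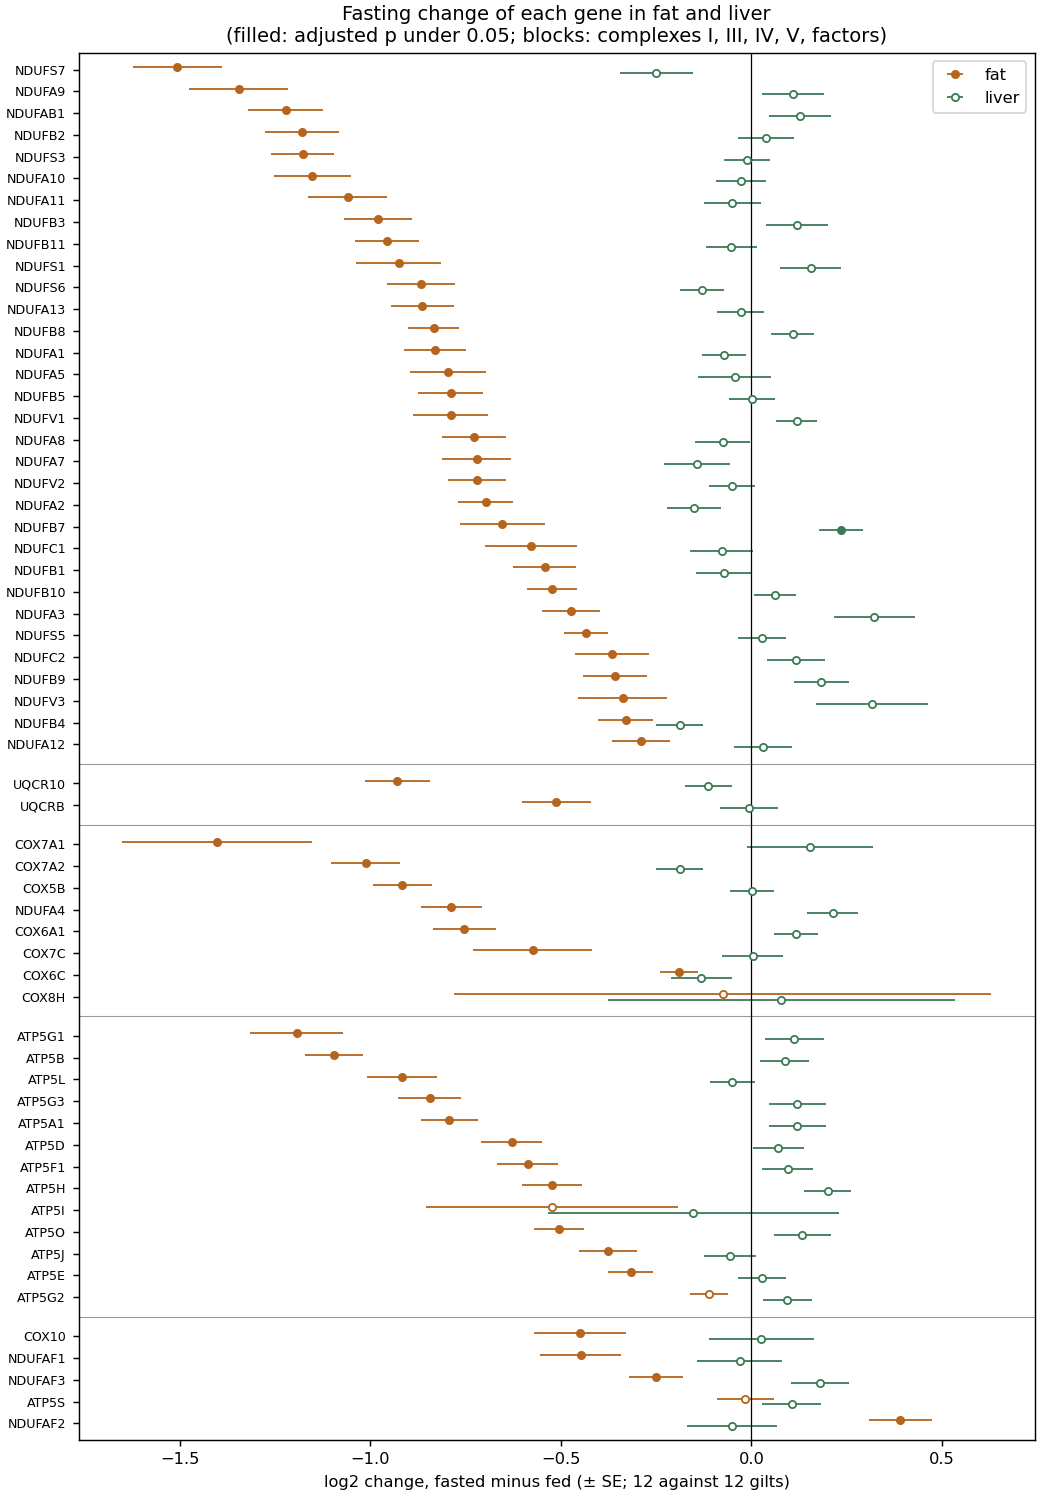
Log2 difference, fasted minus fed (horizontal axis), with its SE for each of the 60 genes in fat and liver, 12 against 12 gilts, grouped by complex I, III, IV, V and factors from top to bottom, with filled points for an adjusted p under 0.05 in limma. In fat 55 points lay below 0 and were called and NDUFAF2 was called above it (0.39), while in liver a single gene, NDUFB7, was called (0.24).

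The ratio of the 3' to the 5' control probe sets, a measure of RNA length, had a log2 range of 0.61 to 1.51 in fed fat (median 1.22) and 0.59 to 2.44 in fasted fat (median 1.82) for GAPDH. For actin it ran from 1.24 to 3.30 (median 1.665) in fed and from 1.32 to 2.28 (median 1.735) in fasted fat. For EF1A it ran from -0.29 to -0.13 (median -0.215) and from -0.29 to -0.12 (median -0.205). Its part in the falls was not tested. For 13 of the 60 genes further probe sets were measured, and several had the other sign in fat. Those of ATP5J, ATP5L, COX10, NDUFA1, NDUFAF1 and NDUFB3 lay below 0 like the brightest. Those of ATP5I (0.15), ATP5S (0.08) and NDUFS6 (0.05) lay above 0 and were not called, where the brightest lay below 0. For NDUFAF2 the second gave -0.57, as given above. With the mean over all probe sets of a gene, the calls of ATP5J, COX7C, NDUFAF2 and NDUFV2 in fat were lost (median -0.71). For NDUFV2 the second probe set rose by 0.44 (adjusted p = 0.00303 in limma) where the brightest fell by 0.72. For NDUFS3 the second gave -1.36 and its dimmest one 0.11, and for COX7C the second gave 0.17 where the first fell by 0.57.

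The same genes spread less from gilt to gilt after fasting. Within genotype, the median SD of the log2 signal over the 60 genes was 0.30 in fed and 0.17 in fasted fat, and 52 genes (86.7%) had the larger SD in fed fat. Over all probe sets 51.3% did, with medians of 0.39 and 0.38. In liver the medians of the 60 genes were 0.16 and 0.17. The genes also varied together: after group and replicate number were taken out, the median Pearson r over the 24 fat arrays was 0.58 over pairs of the 60 genes, 0.63 within complex I and 0.68 within complex V. In liver it was 0.25, and over pairs of all genes with a single symbol it was 0 in both tissues. These values are descriptions, since the points share arrays, scaling and RNA quality. They are given for all arrays only, and not without those high in muscle or liver markers.

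Around the complexes, other genes of mitochondrial respiration were counted from lists chosen with earlier results known. Of the listed genes, 8 of 9 were measured for complex II and electron carriers and 4 of 13 for coenzyme Q synthesis. They were 13 of 34 for other assembly factors and 8 of 10 for carriers and uncoupling genes. Biogenesis regulators had 8 of 20 and further mitochondrial markers 14 of 22. In fat all 4 subunits of complex II, the succinate dehydrogenase that feeds electrons into the chain, fell. SDHC fell by 1.31 ± 0.0787, SDHD by 0.91 and SDHA by 0.73. With cytochrome c (CYCS, -1.25) and the electron transfer flavoprotein genes ETFA (-0.80) and ETFB (-0.51), 7 of 8 genes of this list were lower, and ETFDH (-0.13) was not called. All 4 measured genes of coenzyme Q synthesis fell (median -0.97), COQ9 by 1.26, COQ6 by 1.07, PDSS1 by 0.88 and COQ5 by 0.77.

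Of 13 other assembly factors 7 fell (median -0.38), among them ECSIT of complex I assembly (-0.78), SDHAF2 of complex II (-0.49) and UQCC of complex III (-0.41). Of 8 carriers and uncoupling genes 3 fell, the ADP/ATP carriers SLC25A6 (-0.87) and SLC25A5 (-0.45) and the ATP synthase inhibitor ATPIF1 (-0.80), and 0 rose. Of 14 further membrane and matrix markers of mitochondria 12 fell (median -0.48), with TUFM, a translation factor, at -0.90 and citrate synthase (CS) at -0.56, while TOMM20 (-0.01) and TOMM70 (0.09) were not called. Of the 8 regulators of mitochondrial biogenesis measured, out of 20 listed, 0 fell and 1 rose, the coactivator PPRC1 (0.56 ± 0.169). PPARGC1A gave 0.86 ± 0.425 (adjusted p = 0.154 in limma). Background for all these counts is the 10.1% of probe sets called lower and 15.1% called higher in fat.

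The same question was asked of the liver. There a single gene of the 60 was called (background 4.47%, 2.27% as higher and 2.2% as lower), and 13 of 60 had an unadjusted p under 0.05, where 16.7% of all probe sets did. The median difference was 0.03, against -0.04 over all probe sets, and no gene separated fed from fasted arrays. The called gene was NDUFB7, an accessory subunit of the membrane arm of complex I, with 1070, 1150 and 1370 in fed and 1170, 1370 and 1700 in fasted liver. It was higher by 0.24 ± 0.0586 (adjusted p = 0.0213 in limma), and the call was lost without replicate number 2, 3 or 6 and in eBayes without trend (adjusted p 0.0563 to 0.117).

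NDUFS3, ATP5B, COX5B and NDUFB8 gave small differences in liver, none of them called. NDUFS3 gave -0.01 ± 0.0599, ATP5B 0.09 ± 0.0645, COX5B 0.00 ± 0.0569 and NDUFB8 0.11 ± 0.0564. ATP5B, for one, had signals of 6870, 8340 and 9430 in fed and 7680, 8580 and 10200 in fasted liver. A p over the threshold does not show that the values did not differ. Of the related lists, SDHB (0.23), SDHD (0.29) and ETFDH (0.77 ± 0.0719, adjusted p = 3.5e-07 in limma), which passes electrons from fatty acid oxidation to ubiquinone, were higher in fasted liver, as were COQ5 (0.27) and TOMM22 (0.29).

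The difference between the fasting responses of the tissues was tested itself, by fitting the 48 arrays together, with a random effect for the gilt. The response of fat was lower than that of liver in 52 of the 60 genes and higher in 1, NDUFAF2 (0.44 ± 0.13), and the median difference was -0.73 (background 16.1% called, 7.26% as lower and 8.84% as higher, with a median of 0.12). The largest were COX7A1 (-1.56 ± 0.338), NDUFA9 (-1.45 ± 0.152) and NDUFAB1 (-1.35 ± 0.127). The 7 genes not called were ATP5G2, ATP5I, ATP5S, COX6C, COX8H, NDUFAF1 and NDUFB4.

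The next comparison was fat against liver of the same gilts, within each feeding state. In fed gilts 32 genes were higher and 7 lower in fat (background 62.3% called, 40.2% as higher and 22.1% as lower), with a median difference of 0.24 against 0.21 over all probe sets. In fasted gilts 4 were higher and 44 lower (background 66.4% called, 44.3% as higher and 22.1% as lower), with a median of -0.44 against 0.32. Of the 60 genes 36 lay above 0 in fed and below 0 in fasted gilts, and 20 were called higher in the first and lower in the second (background 6.39% and 0.813%). After quantile normalization these counts were 30 and 23 (8.13% and 0.871%), and after median-centring 23 and 17 (8.53% and 0.933%). Among the 20 were ATP5B, COX5B, NDUFB8, NDUFS7, UQCR10 and UQCRB. ATP5B gave 0.49 ± 0.064 in fed and -0.69 ± 0.064 in fasted gilts. COX5B gave 0.22 in fed gilts, a call lost without replicate number 3 or the arrays with liver markers (0.15 each) and after median-centring (-0.07), and -0.70 in fasted gilts. NDUFB8 gave 0.40 and -0.54, and 0.11 (not called) in fed gilts after median-centring.

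The order of the tissues depended on the scaling of the arrays. Centred on each array's median, 19 genes were higher and 21 lower in fed fat (background 28.9% and 32.2%) and 1 and 55 in fasted fat (29.1% and 35.8%). After quantile normalization 41 were higher and 5 lower in fed fat (33.4% and 27.8%) and 14 and 39 in fasted fat (34.4% and 30.3%). Median-centring moved the median of all probe sets from 0.21 to -0.08 in fed and from 0.32 to -0.12 in fasted gilts. Without replicate number 3 the fed counts were 24 and 10 (38.4% and 21.3%). Relative to the median of all probe sets, 32 of the 60 genes lay above it in fed gilts and 4 in fasted gilts. The response of fat was lower than that of liver in 51 genes after quantile normalization and in 55 after median-centring. The shares of all probe sets under these scalings are not given for this difference.

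**Figure D4:**
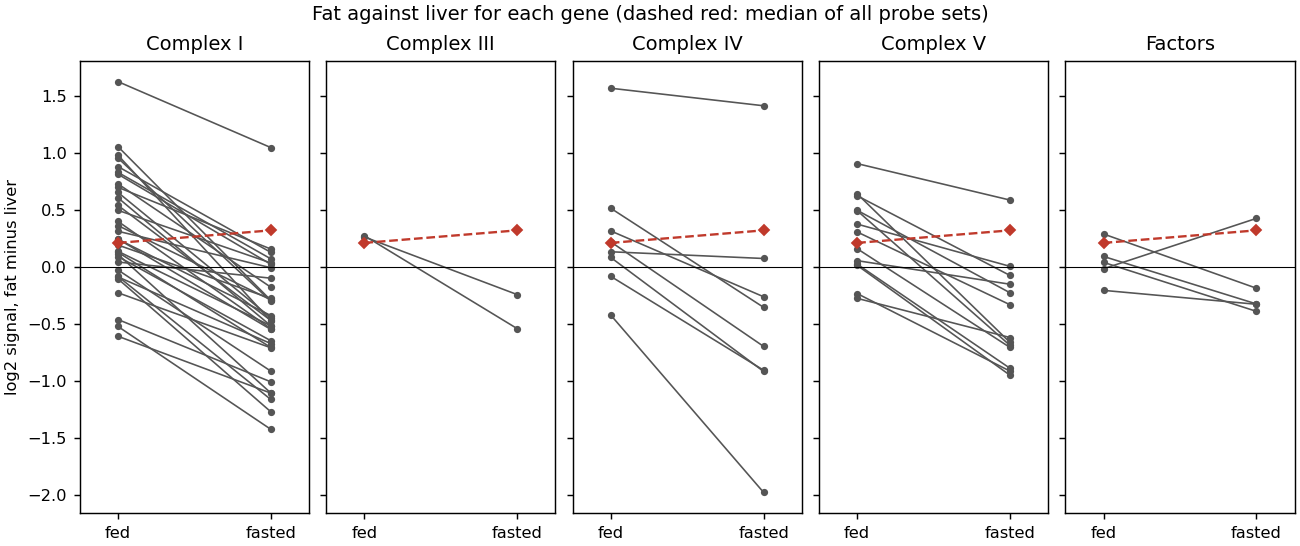
Log2 difference, fat minus liver (vertical axis), of each gene in fed and in fasted gilts (horizontal axis), joined by a line and split by complex, with the median of all probe sets dashed in red (0.21 fed, 0.32 fasted). Most lines run downwards, and 36 of 60 cross 0.

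NDUFA7, an accessory subunit of the peripheral arm, was the gene most in excess in fat. Its signal was 1200, 1610 and 2340 in fed fat and 442, 530 and 658 in fed liver, a difference of 1.63 ± 0.0857 without overlap (adjusted p = 5.55e-22 in limma), and it was still higher by 1.05 ± 0.0857 in fasted gilts. NDUFAB1 was higher by 1.06 ± 0.09 in fed fat, at 6410, 9610 and 12800 against 4140, 4820 and 5210 in liver, and lower by 0.29 ± 0.09 in fasted fat, where quantile normalization gave 0.09 and leaving out the arrays highest in muscle markers gave -0.21, neither of them called. ATP5J was higher in fat in both states, by 0.91 ± 0.0639 and 0.59 ± 0.0639, also without overlap in either state.

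COX8H was higher by 1.57 ± 0.619 in fed fat (adjusted p = 0.0255 in limma), with 16.9, 214 and 652 against 17.8, 68.7 and 159 in liver. In fed gilts it was not called after quantile normalization (1.32) or median-centring (1.28), or without replicate number 1 (1.28), 3 (1.44) or 6 (1.49). In fasted gilts it gave 1.41 (adjusted p = 0.0416), and was not called after quantile normalization (1.05) or median-centring (0.98), without the gilt effect or the trend (1.41 each), or without replicate number 3, 4, 5 or 6 (0.90 to 1.51). Without the arrays highest in muscle markers it gave 1.19 in fed and 0.20 in fasted gilts, and without those with liver markers 1.13 and 1.23, none of them called. With the fat arrays lowest in muscle markers alone the difference was 0.08 (adjusted p = 0.93) in fed and -0.45 (adjusted p = 0.537) in fasted gilts.

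At the other end were 3 accessory subunits of complex I that were lower in fat also in fed gilts. NDUFC1 had signals of 1770, 2050 and 3410 in fed fat and 2880, 3230 and 3970 in fed liver (-0.61 ± 0.104). NDUFB11 gave -0.52 ± 0.0789 and NDUFA2 -0.46 ± 0.0727, and in fasted gilts the 3 differences were -1.11, -1.43 and -1.01. In fed gilts 9 genes had fat arrays all above the liver arrays and 0 all below (background 15.4% and 8.58%), and in fasted gilts 2 (NDUFA7 and ATP5J) all above and 23 all below (background 18.6% and 8.96%).

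NDUFS3 gave -0.11 ± 0.0815 in fed and -1.27 ± 0.0815 in fasted gilts. The mean of its 3 probe sets gave 0.88 and 0.10, since the dimmest gave 2.37 in fed gilts, so its tissue order rests on the brightest probe set. For NDUFA1 the brightest probe set gave 0.83 and the second -0.83 in fed gilts. Differences between the feeding states were alike in direction for both NDUFA1 probe sets, at -0.83 and -1.57 in fat.

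The last question was whether the MC4R form changed these levels or their response. No gene of the 60 was called for genotype or for the interaction of genotype and fasting in either tissue, nor was any other probe set (background 0.0% in each comparison, limma). At an unadjusted p under 0.05 there were 4 of 60 genes for genotype in fat (5.5% of all probe sets), 1 for genotype in liver (5.05%), 1 for the interaction in fat (5.7%) and 8 for that in liver (5.79%). The median difference, N298 minus D298, was 0.08 in fat, where 3 of 60 genes lay below 0, and -0.002 in liver, where 31 did. Over all probe sets the median in fat was -0.01. The 60 genes vary together from gilt to gilt, so that they do not count as separate observations of a direction.

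In fat the smallest p values for genotype were those of ATP5G2 (0.14 ± 0.0496, adjusted p = 0.825 in limma) and NDUFS5 (0.16 ± 0.0577, adjusted p = 0.83 in limma), an accessory subunit of complex I. In fasted fat ATP5G2 ran from 4280 to 5290 in D298 and from 4770 to 5730 in N298 gilts, and NDUFS5 from 3280 to 4200 and from 4170 to 4940. The genotypes overlapped in both genes. In liver the smallest p values were those of COX6C (0.17 ± 0.0796, adjusted p = 0.951) and NDUFS7 (-0.17 ± 0.0965, adjusted p = 0.953).

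Fasting lowered the genes of fat in both genotypes, 49 of 60 in D298 gilts (background 12.6% called, 6.08% as lower and 6.57% as higher) and 47 in N298 gilts, with NDUFAF2 higher there (background 15.5%, 6.43% as lower and 9.07% as higher). Of these calls 44 were shared, and 58 of 60 genes had the same sign in both. Each genotype had its own fed and fasted gilts. Across the 60 genes the differences in fat had a Pearson r of 0.87, given as a description. In liver 37 of 60 genes had the same sign in both genotypes, 0 were called in both, and r was 0.24. The shares of all probe sets with the same sign or called in both genotypes are not given. These counts therefore describe the 60 genes only. ATP5B gave -1.11 ± 0.107 in D298 and -1.08 ± 0.107 in N298 fat, COX5B -0.97 and -0.87, NDUFB8 -0.79 and -0.88, and NDUFS7 -1.41 and -1.61.

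**Figure D5:**
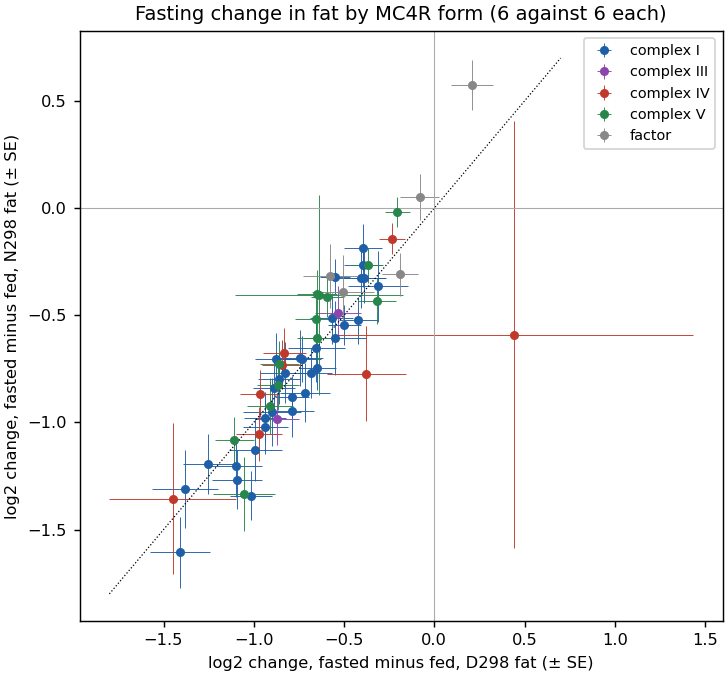
Log2 difference, fasted minus fed in fat, in D298 gilts (horizontal axis) and N298 gilts (vertical axis), 6 against 6 each, for each of the 60 genes with its SE in both, coloured by complex, with a dotted line where both are equal. The points lie along the line (58 of 60 with the same sign), and COX8H, with SEs of 0.996, lies farthest from it.

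The interaction in fat had its smallest p values in NDUFAF2, which gave 0.21 (not called) in D298 fat and 0.57 (called) in N298 fat (interaction 0.37 ± 0.166, adjusted p = 0.868 in limma), and in NDUFS3 (-0.33 ± 0.164, adjusted p = 0.88). In liver no gene of the 60 was called for fasting in D298 gilts (background 1.63%, 0.758% as higher) and 1 in N298 gilts, ATP5H of the stator (0.35 ± 0.0866, adjusted p = 0.0428, background 1.48%, 0.775% as higher). No gene was called there without replicate number 1, 2, 3, 5 or 6, after quantile normalization or in eBayes without trend. The smallest interaction p values in liver were those of ATP5S (0.55 ± 0.155) and ATP5O (0.41 ± 0.15), both with an adjusted p of 0.85 in limma. ATP5S had medians of 1390 and 1320 in fed and fasted D298 liver and of 1150 and 1470 in N298 liver, with overlapping ranges.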

How the data were processed

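The authors deposited linear signal intensities, 1 per probe set on each array. Per the submitters' processing notes these came from affy and MAS5, with no version given. Each array has a mean of 500 once 2% of its values are dropped at either end. Log2 was taken with nothing added and no filter on dim signal. Of 24123 probe sets the 124 with the AFFX control prefix were left out, and 23999 were tested.

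In each tissue limma 3.58.1 (R 4.3.3; lmFit, eBayes with trend) was fitted to the 4 groups of genotype and feeding, with a term for the replicate number (6 levels), because the submitters describe a block design. Residuals of same-numbered arrays had a median correlation of 0.017 in fat and 0.008 in liver. The model of 48 arrays had the gilt as a random block (correlation 0.0841). P values are 2-sided, with Benjamini-Hochberg adjustment over all probe sets. Of the models, that of fat was tested on simulated data with independent normal noise, for the fasting comparison alone. Permutation tests used SciPy 1.17.1.

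Every one of the 60 genes was found in the RefSeq gene table through its gene ID. Another 5 probe sets with several symbols were left out. NDUFA4 was counted in complex IV. The rule for members reads only gene names, but rule and lists were chosen with earlier results of these data known. Named are the 4 marker genes, in each complex the 2 largest falls and the smallest change in fat, tissue forms, factors, the leading genes of liver, genotype, interaction and tissue contrasts, and leading genes of the lists. ATP5A1, ATP5D, ATP5E, ATP5F1, ATP5J, ATP5L, ATP5I, ATP5H and genes named for their further probe sets were added after their values were seen. Alternatives are in the closing section. The number of arrays limits the precision.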

Additional observations from a re-analysis of the deposited data

Results flagged for a closer look

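Among the 248 groups of 6 arrays examined for the named genes, 14 had an array that stood apart from the other 5. This share is close to the 1 in 20 groups that chance gives. Of these, 6 were the same fat array, N298 fed replicate 3, which was the highest of its group in log2 signal for ATP5G3 (14.17), ATP5O (13.44), COX7A2 (13.01), NDUFB11 (11.97), NDUFB7 (10.87) and NDUFC1 (11.74). That array also had a muscle marker mean of 13.4 and a hepatocyte marker mean of 10.5, and its part in these values was not tested. Without replicate number 3, 5 calls for fasting in fat were lost (COX10, COX6C, COX7C, NDUFAF3 and NDUFV3), and the median was -0.64.

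The other arrays were spread over groups. COX10 was highest in fat N298 fed replicate 2 (8.89) and in liver D298 fasted replicate 1 (8.52), and lowest in liver N298 fed replicate 3 (7.50). Liver D298 fasted replicate 2 was the highest for NDUFAB1 (13.03) and NDUFB7 (10.74). ATP5O was lowest in liver D298 fasted replicate 6 (12.49), COX8H in liver D298 fasted replicate 3 (3.83) and NDUFAF2 in liver N298 fasted replicate 1 (8.13).

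The fasting response differed between fat and liver in 26 of the named genes, by the limma test of the difference itself over 48 arrays. For complex I the log2 differences, fat minus liver, were -1.45 for NDUFA9, -1.35 for NDUFAB1, -1.26 for NDUFS7, -1.17 for NDUFS3, -0.94 for NDUFB8, -0.90 for NDUFB11 and -0.89 for NDUFB7. They were -0.58 for NDUFA7, -0.55 for NDUFA2, -0.50 for NDUFC1, -0.46 for NDUFS5 and -0.32 for NDUFA12. The difference of NDUFC1 was not called without replicate number 1 (-0.42), 3 (-0.41) or 4 (-0.48) or without the arrays with liver markers (-0.41). For complex III they were -0.82 for UQCR10 and -0.51 for UQCRB. For complex IV they were -1.56 for COX7A1, -1.0 for NDUFA4, -0.92 for COX5B, -0.87 for COX6A1 and -0.82 for COX7A2. For complex V they were -1.31 for ATP5G1, -1.18 for ATP5B, -0.96 for ATP5G3 and -0.64 for ATP5O. Among the factors they were -0.48 for COX10, -0.43 for NDUFAF3 and 0.44 for NDUFAF2.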

How the results depend on the processing

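The numbers of genes called in either direction for fasting in fat, for fat against liver and for the difference of the responses stayed within 1.5 times their values under each alternative run, and those for genotype and interaction stayed at 0. Fat against liver, the split into higher and lower moved further with the scaling: it was 32 and 7 in fed gilts as deposited, 41 and 5 after quantile normalization and 19 and 21 after median-centring, and 4 and 44, 14 and 39, and 1 and 55 in fasted gilts. Without the replicate block, 55 genes were lower and 1 higher in fasted fat, as with it. The liver counts were small and moved. For fasting in liver, 4 genes were called after quantile normalization, 3 after median-centring, 4 with only the brighter probe sets, 0 without trend, 3 with array weights and 0 to 2 with a replicate number left out. For D298 liver, 1 was called without the replicate block or with a random one and 2 with the brighter probe sets. For N298 liver, 0 were called after quantile normalization or without trend, 5 after median-centring, 2 with the brighter probe sets or array weights, and 0 to 1 with a replicate number left out (0 in 5 of 6 cases). The shares of all probe sets called in liver under these alternatives are not given, so these counts have no background beside them. The cause of the moves was not tested.

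Signs turned in 6 cases. The mean of all probe sets gave -0.09 for NDUFAF2 in fasted fat and 0.88 (fed) and 0.10 (fasted) for NDUFS3 in fat against liver. Fat against liver, median-centring gave -0.07 for COX5B in fed gilts, quantile normalization 0.09 for NDUFAB1 in fasted gilts, and the arrays low in muscle markers -0.45 for COX8H in fasted gilts. The fits on subsets of fat arrays or with the muscle covariate, and the alternatives of the ratios within arrays, were chosen after seeing the data. Of the ratios, that of COX7A1 to COX7A2 passed in the arrays low in muscle markers alone (-0.84, exact permutation p = 0.0303). Over all named genes and alternatives, direction and call were kept in 1565 cases. Apart from the 6 cases with a turned sign, in which a call was also lost or gained, a call was lost in 46 cases and gained in 8. The number of arrays limits the precision.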
